A study of Homo sapiens with 42 samples.

Results

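The genes described here are the human protein-coding genes whose symbol is ZNF followed by a digit, 514 genes in GENCODE 29 out of 42145 genes in the tables of the series. Of these, 510 had at least 1 row and 465 had at least 1 read. Members were tested in a table where their summed rows averaged 20 or more reads per library, which 94 members reached in the table of LM2 and Par cells, 123 in that of the knockdown and 85 in that of T4. In all, 132 members were tested in at least 1 table and 76 in all 3. All libraries came from MDA-MB-231, a human breast cancer cell line, and were 3′-end libraries (QuantSeq REV), in which a read marks the end of a polyadenylated RNA. There were 42 libraries in 14 groups of 3. A row of a table is a transcript end or is named by a position, and a position row was counted with the transcript row that precedes it. Of 23320 position rows, 48 lay on another chromosome or strand than that transcript, where it was found in GENCODE 29. Only 9.66% lay inside the transcript's GRCh38 span, so their assignment rests on the order of the rows.

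The first table held nuclear and cytoplasmic RNA of LM2 cells, which metastasise strongly to the lung, and of poorly metastatic Par cells. The second held nuclear and cytoplasmic RNA of poorly metastatic cells with HNRNPC knocked down (gHNRNPC), by a method the labels do not name, and of control cells (gCTRL). The third held total RNA of LM2 cells exposed for 6 h to 3 µM of the compound T4 in DMSO, or to the same volume of DMSO, and harvested at 6, 24 or 72 h, with a change of medium before the later times. No label says whether the 3 libraries of a group came from separate cultures, so p-values measure the spread between libraries, which may be technical. The study compared the use of polyadenylation sites in cells that differ in metastatic capacity. HNRNPC encodes an abundant nuclear RNA-binding protein.

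ZNF genes encode proteins that mostly carry arrays of C2H2 zinc fingers, small loops held by zinc that read DNA bases. Many of the proteins also have a KRAB domain, which recruits TRIM28 and through it SETDB1 and heterochromatin proteins, and many of these bind retroelements. A large share of the family lies in clusters on chromosome 19, where 249 of the 514 members are annotated. Other members are not DNA-binding repressors: some bind RNA or work in the ribosome, the spindle or the cytoskeleton.

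A pair of classes of member has to be kept apart by how their reads were counted. Values that are not whole are taken here as reads that Salmon divided between rows, which no source used here states. The last 30 bases of the leading annotated ends of ZNF264, ZNF32 and ZNF185, and of the upstream end of ZNF207, all with whole counts in every library, carry a poly(A) signal, given in capitals. Sequences are from the GENCODE 29 transcripts, and positions are in GRCh38.
ZNF264 (chr19:57222817-57222846, + strand): aacttgtgATTAAAgagtatgttattggaa
ZNF32 (chr10:43643860-43643889, - strand): aaAATAAAtgtcttgtttattatcattatc
ZNF185 (chrX:152973451-152973480, + strand): tatAATAAAtggtaagatatcacatgtgtc
ZNF207, upstream end (chr17:32370422-32370451, + strand): catAATAAAattcatagttaccaatgcagt

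A poly(A) signal (AATAAA or ATTAAA, sense strand, last 40 bases) was present in 81.4% of the leading annotated ends with whole counts and 11.5% of those with divided counts among the members tested in the T4 table. It was present in 70.4% of such ends with whole counts and 18.2% of those with divided counts in the knockdown, and in 75.0 and 14.3% in LM2 and Par cells. Over all transcript ends in the T4 experiment, it was present in 32.4% of 64092 with whole counts and 33.1% of 2023 with divided counts. The ends with whole counts in this last comparison include ends without reads in any library. It therefore cannot show whether the contrast extends beyond the leading ends of tested members. A member is called a divided-count member where 50% or more of its reads were in rows that were not whole, and a whole-count member otherwise. This boundary was set after the values had been seen. It gave 25 divided-count and 69 whole-count members for LM2 and Par cells, 25 and 98 for the knockdown, and 34 and 51 for T4. Since divided reads are taken to fit other rows as well, the level of a divided-count member is uncertain as a value of that gene. Position rows held 17.4 to 23.1% of the reads of divided-count members and 16.6 to 17.7% of those of whole-count members.

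A few libraries stood apart in these reads. Rows with divided counts took 49.5% of all reads in the second nuclear library of LM2 cells and 47.1% in that of Par cells, against 13.3 to 23.3% in the other nuclear libraries of these lines. In T4 library 3 at 6 h they took 61.3%, against 46.8 and 43.7% in the other T4 libraries at 6 h. Depth was 798052 to 2304698 reads per library, and the biological coefficient of variation of the fit was 35.8% for LM2 and Par cells, 18.3% for the knockdown and 24.5% for T4. HNRNPC checked the knockdown labels, at 87.3 to 120 CPM (reads scaled to the size of the library) in gHNRNPC cytoplasm and 444 to 526 in gCTRL cytoplasm, and at 81.3 to 111 in gHNRNPC nuclei and 422 to 677 in gCTRL nuclei. As a check of the fractions, MALAT1, a nuclear RNA, had 31.3, 56.5 and 71.8 CPM in gCTRL nuclei, against 4.80, 6.80 and 4.64 in gCTRL cytoplasm. The largely cytoplasmic NORAD averaged 192 ± 23.0 CPM in gCTRL nuclei and 371 ± 59.1 in gCTRL cytoplasm (SD, n = 3). In nuclei and cytoplasm MALAT1 averaged 13.8 and 4.50 CPM in LM2 cells and 19.7 and 3.71 in Par cells. NORAD averaged 176.5 and 309.3 in LM2 cells and 149.5 and 373.3 in Par cells. TUG1, from the same list, gave no such split in these lines, with 59.4 and 71.1 in LM2 cells and 49.1 and 53.0 in Par cells. It had 83.2 and 58.6 in gCTRL cells. NEAT1, KCNQ1OT1 and MEG3 had few or no reads. The 8 mitochondrially encoded mRNAs summed to 58600 to 75500 CPM in gCTRL nuclei and 390 to 1140 in gCTRL cytoplasm, and to 16000 to 28400 in LM2 nuclei and 3090 to 3720 in LM2 cytoplasm. Their part in the results was not tested. Of 12 markers, mostly of other cell types, CD3E and DCN were at 0 in every library, while CD68, COL1A1 and the epithelial EPCAM were detected. COL1A1 differed between the lines, with means of 50.3 CPM in LM2 nuclei and 0.282 in Par nuclei, and 8.17 and 0.471 in cytoplasm. CD68 averaged 76.6 CPM in gHNRNPC nuclei and 31.9 in gCTRL nuclei. Whether these reads came from other cells was not tested. The summed level of the 12 was 56.1 to 127 CPM in gHNRNPC nuclei and 38.6 to 56.6 in gCTRL nuclei, and 19.5 to 49.5 CPM after T4 and 40.6 to 47.9 after DMSO at 6 h.

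By mean count over all libraries of a table, the highest members were divided-count ones. ZNF454, a KRAB zinc finger gene, averaged 1288 reads per library of LM2 and Par cells, 1231 of the knockdown and 3887 of T4. ZNF526 averaged 651, 603 and 2034 reads and ZNF655 534, 568 and 1311 reads in these tables. In cytoplasm the order could differ, with ZNF593 at 328 CPM and ZNF454 at 222 in gHNRNPC cells, at 386 and 306 in LM2 cells and at 403 and 221 in Par cells. The whole-count members with the highest mean counts were ZNF593 with 493, 401 and 282 reads, ZNF316 with 284, 465 and 269, ZNF185 with 213, 255 and 233, and ZNF703 with 263, 223 and 161. ZNF593 is related to a yeast factor for export of the large ribosomal subunit, ZNF185 is a LIM-domain protein of the actin cytoskeleton despite its name, and ZNF703 is a transcriptional co-repressor amplified in luminal breast cancers. Of all ZNF reads, 42.0% in LM2 and Par cells, 35.6% in the knockdown and 73.8% in the T4 experiment lay in divided rows, against 23.9, 18.9 and 37.9% of the reads of all genes. The members nearest to the threshold of 20 reads were ZNF16 at 20.4 inside and ZNF611 at 19.8 outside in LM2 and Par cells, ZNF268 at 20 and ZNF785 at 19.4 in the knockdown, and ZNF32 at 20.8 and ZNF24 at 19.4 in the T4 experiment.

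**Figure D1:**
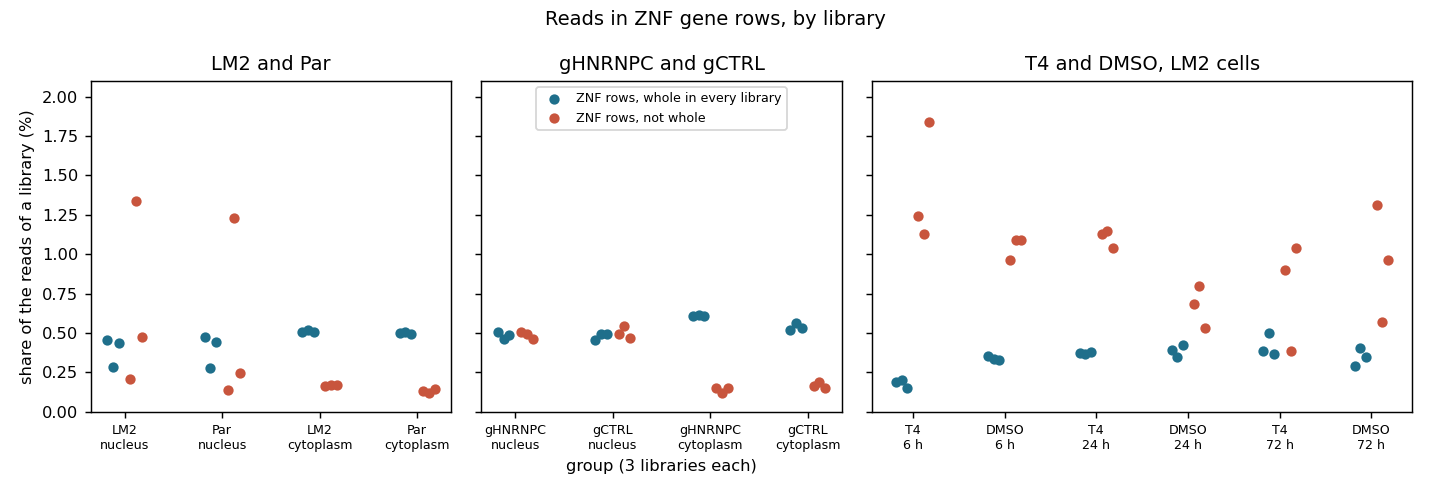
Percentage of the reads of each library (vertical axis) in ZNF rows with whole counts (blue) and in ZNF rows with divided counts (red), by group (horizontal axis), with 1 point per library and colour. Whole rows held 0.149 to 0.200% of reads in the 3 T4 libraries at 6 h and 0.326 to 0.355% in the DMSO libraries at 6 h, while divided rows reached 1.34% in 1 LM2 nuclear library and 1.84% in 1 T4 library at 6 h.

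Nuclei were compared with cytoplasm 4 times, in LM2, Par, gHNRNPC and gCTRL cells. Whole-count ZNF genes were more often called lower than higher in nuclei, but some passed the filter only through the fraction where they were high. In gCTRL cells 22 of 98 were higher and 32 lower, with a median log2 change of -0.15, where a call is an adjusted p under 0.05 in edgeR's quasi-likelihood test with Benjamini-Hochberg adjustment over all genes. In gHNRNPC cells 17 were higher and 24 lower, in LM2 cells 14 of 69 higher and 23 lower, and in Par cells 8 of 69 higher and 21 lower, with a median of -0.22. Over all genes tested, 34.0% were higher and 33.4% lower in gCTRL nuclei, 32.5 and 27.9% in gHNRNPC nuclei, 35.5 and 27.1% in LM2 nuclei, and 28.8 and 26.2% in Par nuclei, so the shares of whole-count members called lower lie near this background, and those called higher lie below it. Divided-count members went the other way, with 19 of 25 higher and 2 lower in gCTRL nuclei (median 1.82), 19 and 1 in gHNRNPC nuclei (2.05), 16 and 1 of 25 in LM2 nuclei (2.74) and 16 and 1 in Par nuclei (2.59). Some called members averaged under 20 reads in the fraction where they were low. Among whole-count members called lower these were 9 in gCTRL, 5 in gHNRNPC, 8 in LM2 and 6 in Par cells. Among whole-count members called higher they were 1, 2, 2 and 2, and among divided-count members called higher 5, 5, 8 and 7. They passed the filter through the other fraction, so these counts are no support for a direction. All divided-count genes of the tables had medians of 1.49 in gCTRL cells and 2.39 in Par cells. In the bulk RNA of a fraction, CPM are shares, so a higher share in nuclei cannot be told apart from less of other RNA there.

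Of the 69 whole-count members tested in all 4 comparisons, 15 were lower in nuclei each time and 6 were higher each time. The share of all genes called alike in all 4 is not available here, so these counts cannot be set against a background. Of the 15, 5 (ZNF358, ZNF32, ZNF205, ZNF639 and ZNF362) and 2 of the 6 (ZNF398 and ZNF304) averaged under 20 reads, for LM2 and Par cells or for the knockdown, in the fraction where they were low and passed the filter through the other, so these counts are no support for a direction. The 15 were ZNF358, ZNF32, ZNF865, ZNF205, ZNF703, ZNF784, ZNF580, ZNF639, ZNF768, ZNF787, ZNF362, ZNF770, ZNF593, ZNF408 and ZNF76. ZNF358, a zinc finger protein, had the lowest nuclear share of them. It had 5.44, 14.4 and 14.3 CPM in LM2 nuclei, against 116, 123 and 134 in LM2 cytoplasm, and 39.4, 27.0 and 21.8 CPM in gCTRL nuclei, against 194, 337 and 206 in gCTRL cytoplasm. The groups did not overlap, and the log2 change was -3.43 ± 0.35 (SE) in LM2 cells (edgeR adjusted p = 1.7e-05) and -3.05 ± 0.30 in gCTRL cells (adjusted p = 1.9e-08). ZNF32, whose end is printed above, had 18.8, 16.1 and 14.8 CPM in gCTRL nuclei, against 77.9, 99.1 and 79.3 in gCTRL cytoplasm, a log2 change of -2.36 ± 0.25. ZNF703 had 67.6, 70.0 and 63.4 CPM in gCTRL nuclei, against 196, 303 and 227 in gCTRL cytoplasm (-1.85 ± 0.20), and ZNF593 had 110, 103 and 78.2 CPM in gCTRL nuclei, against 250, 377 and 245 in gCTRL cytoplasm (-1.58 ± 0.23). In each of these pairs every nuclear library lay below every cytoplasmic one.

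The 6 members higher in nuclei each time were ZNF398, ZNF185, ZNF304, ZNF281, ZNF638 and ZNF839. ZNF185 had 247, 324 and 231 CPM in gCTRL nuclei, against 84.8, 107 and 85.8 in gCTRL cytoplasm (log2 change 1.53 ± 0.22), and 185, 303 and 289 CPM in LM2 nuclei, against 96.2, 101 and 94.6 in LM2 cytoplasm (1.41 ± 0.21). ZNF638, a nuclear protein that silences unintegrated retroviral DNA with the HUSH complex, had 42.6, 40.4 and 43.7 CPM in gCTRL nuclei, against 12.8, 16.4 and 15.8 in gCTRL cytoplasm (1.49 ± 0.24). ZNF281, a transcription factor studied in epithelial-mesenchymal transition, had 29.4, 44.3 and 49.3 CPM in gCTRL nuclei, against 11.7, 11.3 and 13.9 in gCTRL cytoplasm (1.72 ± 0.27). ZNF398 and ZNF304, both KRAB zinc finger genes, changed by 1.85 ± 0.24 and 1.26 ± 0.30 in gCTRL cells. The nuclear libraries of these genes again lay above all cytoplasmic ones. Of the 8 whole-count members higher in Par nuclei, 7 (87.5%) were also higher in gCTRL nuclei. Of the 21 lower in Par nuclei, 19 (90.5%) were also lower in gCTRL nuclei. Over all genes tested, 34.0% were higher and 33.4% lower in gCTRL nuclei. The 7 include ZNF304 and ZNF398, and the 19 include ZNF358, ZNF32, ZNF205, ZNF639 and ZNF362. These members passed the filter through the fraction where they were high, so the overlaps are no support for a direction. No whole-count member was called in opposite directions, and the 2 comparisons share no library.

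**Figure D2:**
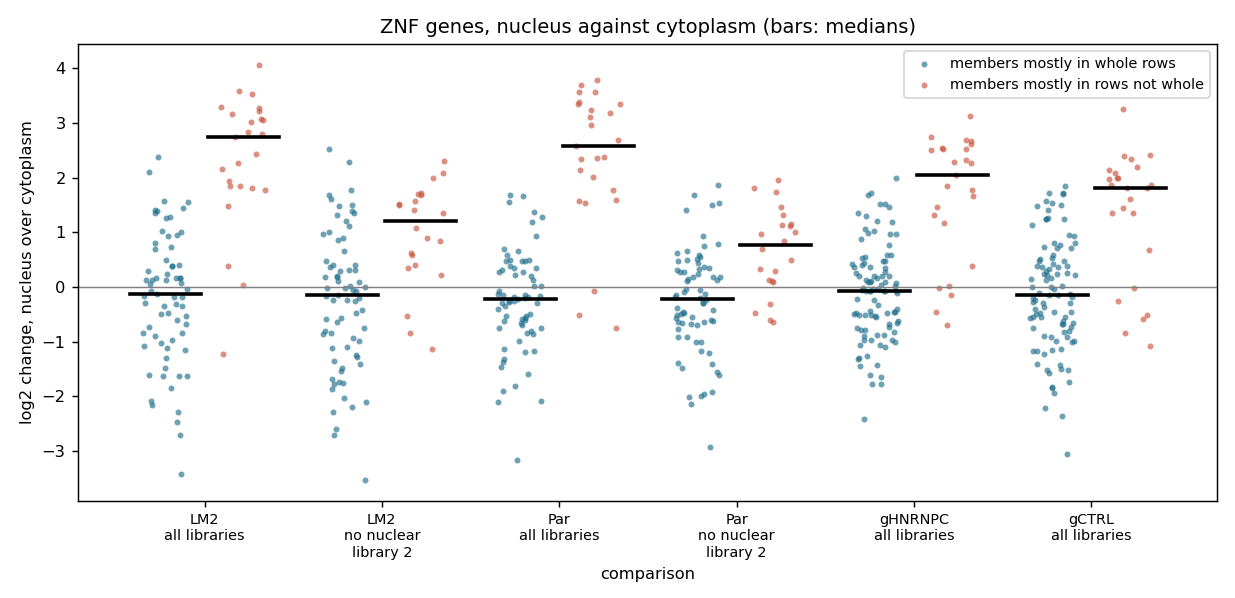
Log2 change of nucleus over cytoplasm (vertical axis) for each tested ZNF gene in LM2, Par, gHNRNPC and gCTRL cells (horizontal axis), with whole-count members in blue, divided-count members in red and black bars for the medians. The medians of divided-count members lie at 2.74 in LM2 cells and 2.59 in Par cells with all libraries and lower without nuclear library 2, while the medians of whole-count members with all libraries lie between -0.22 and -0.06.

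Among divided-count members, 13 of the 24 tested in all 4 comparisons were higher in nuclei each time, and 1, ZNF395, was lower each time. Here too the share of all genes called alike in all 4 is not available. Of the 13, 6 (ZNF66, ZNF169, ZNF276, ZNF546, ZNF665 and ZNF879) averaged under 20 reads in the cytoplasm of at least 1 table and passed the filter through nuclei, so this count supports no direction either. In Par and LM2 cells the higher values came mostly from the second nuclear libraries. ZNF454 had 422, 5755 and 1268 CPM in LM2 nuclei, against 308, 298 and 312 in LM2 cytoplasm, and 263, 5140 and 602 CPM in Par nuclei, against 210, 183 and 269 in Par cytoplasm. In Par cells the first nuclear library therefore lay below the third cytoplasmic one. In the knockdown table, which has no such library, ZNF454 had 1412, 1446 and 1204 CPM in gCTRL nuclei, against 288, 372 and 224 in gCTRL cytoplasm (log2 change 2.20 ± 0.19, edgeR adjusted p = 4.3e-09). ZNF713 had 281, 304 and 215 CPM in gCTRL nuclei, against 50.7, 56.1 and 44.5 in gCTRL cytoplasm (2.40 ± 0.22). Without the second nuclear libraries of both lines, 14 of 22 divided-count members were higher in LM2 nuclei and 1 lower (median 1.22), and in Par nuclei 8 were higher and 1 lower (median 0.77). Whole-count members then gave 16 higher and 26 lower of 72 in LM2 nuclei and 10 and 21 in Par nuclei. With 1 library less, the 46 members called in Par cells became 29, 27 and 27 without Par cytoplasmic library 1, 2 or 3, and 28 without Par nuclear library 2.

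The listed genes moved in mixed directions between fractions. Of 8 members tested that act on RNA or in translation, 4 were higher and 1 lower in gCTRL nuclei and the same in LM2 nuclei. Of 9 members that act as chromatin cofactors, 2 were higher and 1 lower in gCTRL nuclei, of 6 members linked to cancer 1 was higher and 2 lower, and of 4 members known to act on retroelements 1 was higher and 1 lower. Of 25 genes of the KRAB pathway (TRIM28, SETDB1, heterochromatin proteins and their partners), 9 were higher and 11 lower in gCTRL nuclei. By chromosome, 7 of 34 whole-count members on chromosome 19 were higher and 13 lower in gCTRL nuclei, and on the other chromosomes 15 of 64 were higher and 19 lower. Over all genes tested, 34.0% were higher and 33.4% lower in gCTRL nuclei, and 35.5 and 27.1% in LM2 nuclei. The lists and the members were chosen with results of these data known, so these counts are no support for a direction of a list.

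One stretch of chromosome 19 showed how close neighbours can differ. It was chosen after its values had been seen. Within 100 kb of ZNF580 lie 6 members, in the 68.9 kb at chr19:55576770-55645622 of GRCh38, all with whole counts. In gCTRL cells ZNF524 (-1.40), ZNF865 (-2.22), ZNF784 (-1.51), ZNF580 (-1.51) and ZNF581 (-0.81) were lower in nuclei on the log2 scale, each called by edgeR, while ZNF579 had 0.38 (adjusted p = 0.28). After knockdown of HNRNPC, ZNF524 (-1.14), ZNF865 (-0.99) and ZNF784 (-1.44) fell in the cytoplasm and ZNF581 (0.51) rose, in the nucleus ZNF784 (-1.24) fell and ZNF580 (0.87) and ZNF581 (0.78) rose, and at 6 h of T4 ZNF865 (-1.39), ZNF784 (-1.66), ZNF579 (-1.20) and ZNF581 (-0.76) fell while ZNF580 (1.34) rose. ZNF580 and ZNF581 overlap on the + strand, so reads from the shared part cannot be assigned by position alone.

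**Figure D3:**
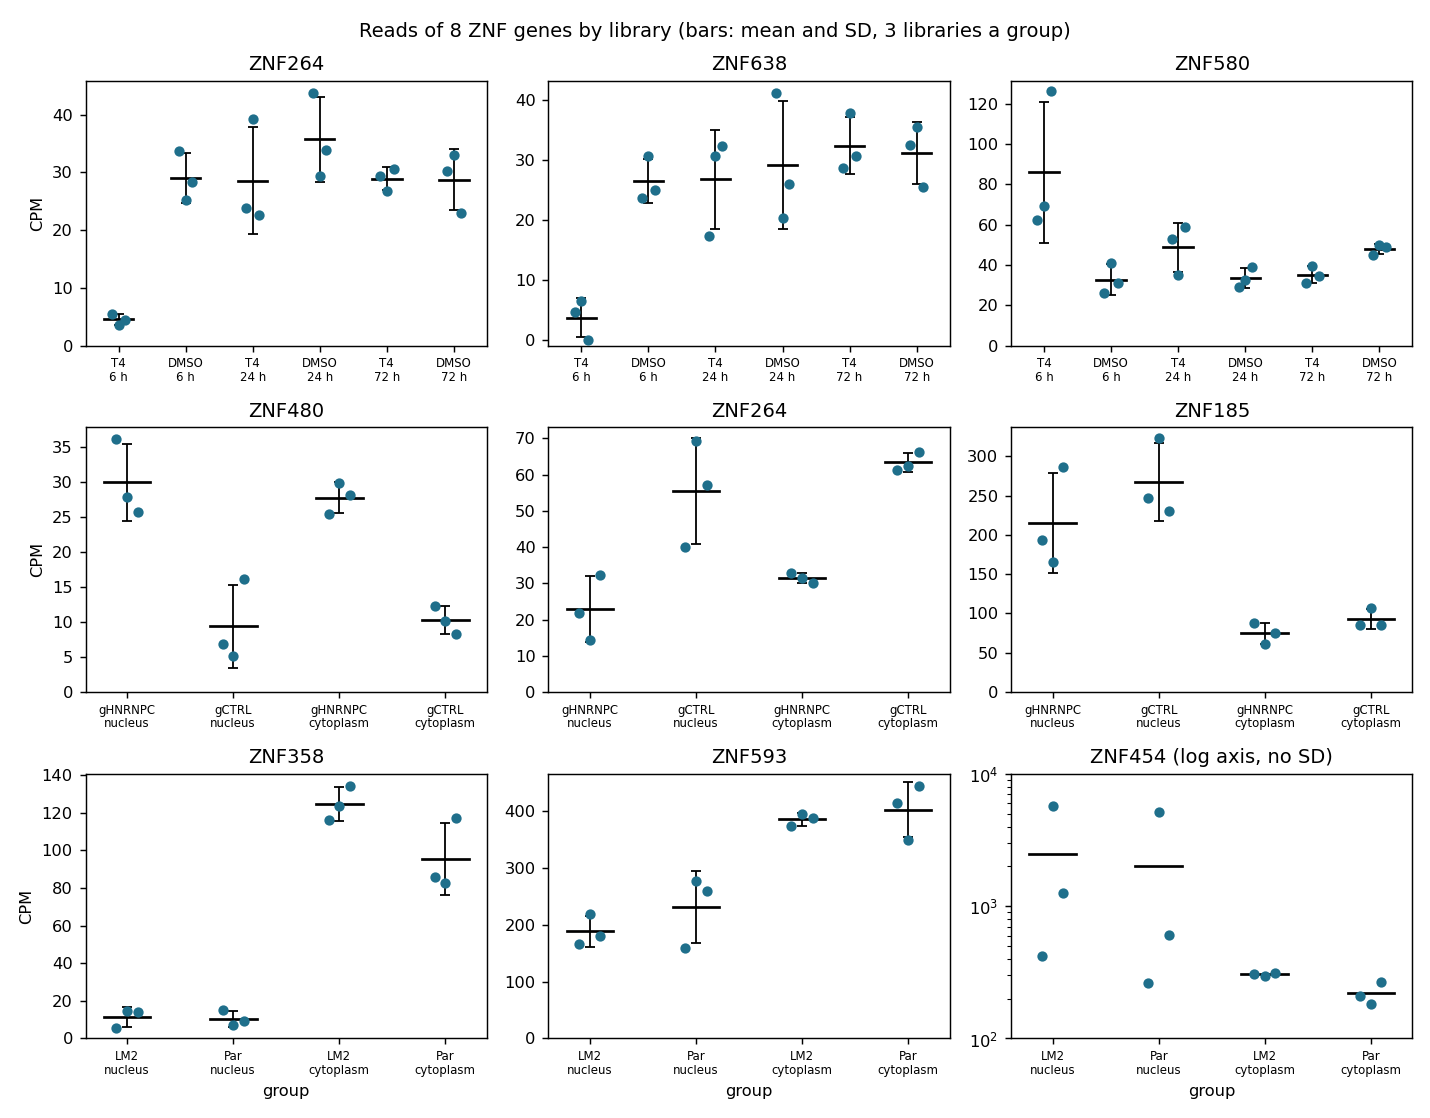
CPM (vertical axes) of ZNF genes in every library, by group (horizontal axes), with black bars for the mean and SD of 3 libraries, except for ZNF454, which is on a log axis with the mean only. ZNF264 lies at 3.64 to 5.50 CPM in the T4 libraries at 6 h and at 25.2 to 33.7 CPM in the DMSO libraries at 6 h. ZNF358 is lower in every nuclear library than in any cytoplasmic one. ZNF454 is highest in the second nuclear library of each line, at 5755 CPM in LM2 and 5140 CPM in Par cells.

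Knockdown of HNRNPC addressed which RNAs depend on that protein. In the cytoplasm 12 of 123 members rose and 12 fell, against 11.8% and 17.3% of all genes tested. In the nucleus 10 rose and 3 fell, against 8.85% and 8.09% of all genes. As shares of 123, the rising members lie close to this background in both fractions, and the falling members below it. All 12 and 10 members that rose were whole-count members, and of the 25 divided-count members only ZNF395 changed. With library totals in place of TMM factors the cytoplasmic split became 21 higher and 7 lower, and the nuclear one 9 higher and 6 lower. The median log2 change of all genes was then 0.10 and not -0.09 in the cytoplasm, and -0.077 and not 0.001 in the nucleus. Whether these medians account for the change in calls was not tested.

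The whole-count members that rose in both fractions were ZNF16, ZNF473, ZNF480, ZNF569, ZNF581 and ZNF707, 6 of the 12 that rose in the cytoplasm and of the 10 that rose in the nucleus. ZNF707, a KRAB zinc finger gene, had 45.4, 46.3 and 43.5 CPM in gHNRNPC nuclei, against 14.4, 7.06 and 11.3 in gCTRL nuclei. Its log2 change was 2.04 ± 0.31 (SE, edgeR adjusted p = 0.00013) in the nucleus and 1.11 ± 0.32 in the cytoplasm. ZNF480, also a KRAB gene, had 25.4, 29.9 and 28.1 CPM in gHNRNPC cytoplasm, against 12.3, 10.2 and 8.35 in gCTRL cytoplasm, with log2 changes of 1.44 ± 0.32 (adjusted p = 0.0023) in the cytoplasm and 1.68 ± 0.35 in the nucleus. In both genes every gHNRNPC library lay above every gCTRL one. ZNF473 encodes a protein of the U7 snRNP machinery that cuts the 3′ ends of histone mRNAs. It had 103, 80.5 and 95.8 CPM in gHNRNPC cytoplasm, against 36.3, 56.7 and 35.3 in gCTRL cytoplasm (1.13 ± 0.25). ZNF282 (1.16 ± 0.31), ZNF761 (1.01 ± 0.32) and ZNF419 (0.94 ± 0.23) rose in the cytoplasm, and ZNF468 (1.13 ± 0.34), ZNF580 (0.87 ± 0.25) and ZNF593 (0.76 ± 0.23) in the nucleus. Their changes in the other fraction did not pass the test.

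ZNF264 and ZNF784 fell in both fractions. ZNF264, a KRAB zinc finger gene, had 33.0, 31.3 and 30.2 CPM in gHNRNPC cytoplasm, against 61.4, 62.3 and 66.3 in gCTRL cytoplasm (log2 change -1.01 ± 0.24), and 21.9, 14.4 and 32.4 CPM in gHNRNPC nuclei, against 40.1, 69.3 and 57.0 in gCTRL nuclei (-1.27 ± 0.27). ZNF395, a factor studied in hypoxia, fell in both as well, with 110, 101 and 109 CPM in gHNRNPC cytoplasm, against 261, 307 and 252 in gCTRL cytoplasm (-1.36 ± 0.18, edgeR adjusted p = 1.2e-05). Most of its reads were divided, and with whole rows only its log2 change was -0.18 in the cytoplasm (adjusted p = 0.72) and -1.03 in the nucleus (adjusted p = 0.041). ZNF618 fell by 1.62 ± 0.37 on the log2 scale in the cytoplasm, at 8.64, 6.27 and 9.78 CPM in gHNRNPC libraries, against 22.4, 35.1 and 19.5 in gCTRL libraries. It averaged 11.9 reads in the libraries of the table other than gCTRL cytoplasm and passed the filter through that group, as did ZNF569 through gHNRNPC cytoplasm. ZNF703 (-0.94 ± 0.19) and ZNF668 (-0.93 ± 0.32) fell in the cytoplasm, but without gCTRL cytoplasmic library 2 ZNF668 had -0.48 (adjusted p = 0.27). None of the 123 members differed in its change between nucleus and cytoplasm by edgeR (10 at an unadjusted p under 0.05, 0 by DESeq2, and 0.0155% of all genes called in each direction).

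**Figure D4:**
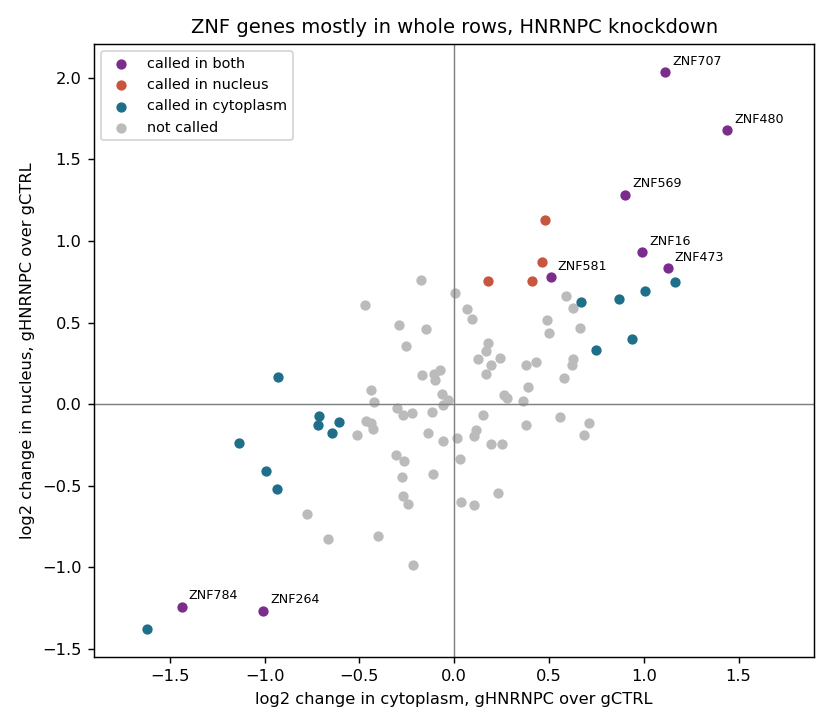
Log2 change of gHNRNPC over gCTRL in the cytoplasm (horizontal axis) and in the nucleus (vertical axis) for the 98 whole-count ZNF genes, 1 point per gene, coloured by the fractions in which edgeR called it. The 8 named genes, 6 at the upper right and 2 at the lower left, were called in both fractions.

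Of the 34 whole-count members on chromosome 19, 7 rose and 5 fell in the cytoplasm, and in the nucleus 7 rose and 2 fell. On the other chromosomes 5 of 64 rose and 6 fell in the cytoplasm, and 3 rose and 0 fell in the nucleus. The difference between the chromosomes was not tested. Over all genes tested, 11.8% rose and 17.3% fell in the cytoplasm, and 8.85% rose and 8.09% fell in the nucleus. The lists that follow were chosen with results of these data known. Of 25 KRAB pathway genes tested, 0 rose and 9 fell in the cytoplasm, and 0 rose and 5 fell in the nucleus. UHRF1, which maintains DNA methylation, fell by 1.67 ± 0.18 on the log2 scale in the cytoplasm and by 1.00 ± 0.20 in the nucleus, and the NuRD subunits GATAD2A and CHD3 fell by 1.01 ± 0.18 and 1.09 ± 0.23 in the cytoplasm. Among other zinc finger families in the cytoplasm, 4 of 17 ZBTB, 1 of 7 ZSCAN and ZKSCAN, 1 of 3 ZFP and 1 of 6 KLF and SP genes fell, and 0 rose. The 24 members called in the cytoplasm became 15 without gHNRNPC cytoplasmic library 3, and the 13 in the nucleus became 7 without gCTRL nuclear library 2 and 8 without gHNRNPC nuclear library 3.

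Whole-count ZNF genes were mostly lower 6 h after T4. Of 51 tested, 20 fell and 4 rose, with a median log2 change of -0.76, and of 34 divided-count members 2 rose and 0 fell, with a median of 0.99. Over all genes tested, 13.5% fell and 5.45% rose, and among all whole-count genes 16.5% fell and 5.32% rose, with a median of -0.13. All divided-count genes had a median of 0.94, near that of the divided-count ZNF genes. The largest falls were those of ZNF264, ZNF638, ZNF775, ZNF609 and ZNF367. ZNF264 had 5.50, 3.64 and 4.51 CPM in T4 libraries, against 33.7, 25.2 and 28.3 in DMSO libraries (log2 change -2.65 ± 0.35, SE, edgeR adjusted p = 8.5e-05). ZNF638 had 4.59, 6.38 and 0 CPM in T4 libraries, against 23.7, 30.7 and 25.1 in DMSO libraries (-2.54 ± 0.46, adjusted p = 0.00097). No T4 library of either gene reached the lowest DMSO library. ZNF775 had 5.50, 0.911 and 2.25 CPM after T4, against 20.7, 18.1 and 13.5 after DMSO (-2.48 ± 0.46). ZNF609, whose mouse protein works with cohesin loading and Integrator factors, had 1.83, 2.73 and 18.03 CPM after T4, against 33.7, 21.3 and 16.7 after DMSO (-2.16 ± 0.58), so its T4 library 3 overlapped the DMSO libraries.

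Some of the members that fell are listed as chromatin cofactors. Of 6 such members tested at 6 h, 4 fell and 2 rose. Among all 51 whole-count members 20 fell and 4 rose, and over all genes 13.5% fell and 5.45% rose. The list was chosen with results of these data known. ZNF512B, a partner of the NuRD complex, had 15.6, 8.20 and 13.5 CPM after T4, against 42.8, 37.8 and 30.9 after DMSO (-1.59 ± 0.24). ZNF445, which helps to keep genomic imprints, had 7.34, 9.11 and 9.02 CPM after T4, against 24.5, 23.7 and 27.6 after DMSO (-1.58 ± 0.32). ZNF335, a component of histone H3 lysine 4 methyltransferase complexes, fell by 1.49 ± 0.29, and ZNF687, which works with ZMYND8, by 1.15 ± 0.30. These T4 and DMSO libraries did not overlap in any of the 4 genes. The 2 that rose were ZNF219, with 64.2, 59.2 and 92.4 CPM after T4 and 39.0, 40.2 and 39.2 after DMSO (0.83 ± 0.22), and ZNF592, a partner of ZNF687, with 0.61 ± 0.19. ZNF580, with 62.4, 69.2 and 126 CPM after T4 and 26.0, 41.0 and 30.9 after DMSO (1.34 ± 0.27), and ZNF703 (0.77 ± 0.22) rose too. With library totals, only ZNF580 of these 4 still passed the test.

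ZNF473, the U7 snRNP factor, fell by 1.58 ± 0.39 on the log2 scale at 6 h, to 5.50, 12.8 and 27.1 CPM after T4, against 48.9, 39.4 and 28.3 after DMSO. The other whole-count members that fell were ZNF367, ZNF784, ZNF444, ZNF777, ZNF48, ZNF865, ZNF579, ZNF212, ZNF584, ZNF672 and ZNF581, with log2 changes between -1.96 and -0.76. Of 26 KRAB pathway genes, 5 fell and 0 rose: ATF7IP, the partner of SETDB1, by 3.16 ± 0.29, SMARCAD1 by 1.58 ± 0.36, MORC2 by 1.52 ± 0.44, UHRF1 by 0.79 ± 0.24 and GATAD2A by 0.47 ± 0.15. Over all genes tested, 13.5% fell and 5.45% rose at 6 h. Of 10 ZBTB genes 4 fell and 1 rose, and of 4 ZSCAN and ZKSCAN genes 3 fell. Of 1 ZFP gene and 2 KLF and SP genes 0 were called. Of 8 members acting on RNA or in translation, ZNF638 alone was called, of 3 linked to cancer ZNF703 alone, and of 2 acting on retroelements 0. HNRNPC itself had 419, 414 and 207 CPM after T4, against 389, 387 and 383 after DMSO at 6 h, groups that overlap. On chromosome 19, 8 of 16 whole-count members fell and 1 rose, and on the other chromosomes 12 of 35 fell and 3 rose.

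The counts at 6 h depend on scaling and on the libraries. With library totals the median of all genes at 6 h was -0.41, against 0.01 with TMM, and 30 members fell and 1 rose, while the median of whole-count members relative to all genes was -0.81, against -0.77 with TMM. Without T4 library 3, 29 of 54 whole-count members fell and 2 rose (median -0.86), and no divided-count member was called (median 0.33). Fitting the 6 h libraries alone left 7 members called of 26, and leaving out DMSO library 1 left 16.

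The median of the 20 whole-count members that had fallen at 6 h was nearer to 0 at the later times. Their median log2 change was -1.48 at 6 h, -0.10 at 24 h and 0.03 at 72 h, and 0 of them were called at 24 h or 72 h. Their values ran between -0.92 and 0.72 at 24 h and between -0.80 and 0.77 at 72 h. ZNF579 still had -0.92 ± 0.29 at 24 h (edgeR adjusted p = 0.056), against -1.20 ± 0.36 at 6 h. Above 0 were 0 of them at 6 h, 8 at 24 h and 11 at 72 h. ZNF264 had 23.9, 39.3 and 22.5 CPM after T4 at 24 h, against 43.8, 29.4 and 33.9 after DMSO, and 29.4, 26.8 and 30.6 CPM after T4 at 72 h, against 30.3, 33.1 and 23.0 after DMSO. At both times its groups overlapped. The 6 h values chose these 20, so their later medians are a description. The difference in T4 effect between times was tested over all 85 members. It was higher at 24 h than at 6 h for 15 members and lower for 1, against 6.94% and 5.15% of all genes, and higher at 72 h than at 6 h for 12 and lower for 3, against 8.72% and 2.26% of all genes. These differences share the 6 h libraries. With library totals the split at 72 h became 26 higher and 1 lower. The 16 members called at 24 h against 6 h became 10 without DMSO library 3 and 28 without T4 library 3 at 6 h.

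At 24 h itself, 2 members rose and 1 fell, against 2.01% and 7.97% of all genes. ZNF587, a KRAB zinc finger gene that represses retroelements, had 45.3, 25.7 and 36.8 CPM after T4, against 19.9, 18.6 and 10.4 after DMSO (1.13 ± 0.33). ZNF66 (1.69 ± 0.39) rose with divided counts. ZNF185 fell, with 101, 118 and 95.4 CPM after T4 and 203, 176 and 211 after DMSO (-0.91 ± 0.23), groups that do not overlap. Without DMSO library 1, 2 or 3 at 24 h, 1, 1 and 0 members were called, and without T4 library 1 or 3, 0 and 1. Without T4 library 3 at 6 h, 6 whole-count members rose and 2 fell at 24 h, and 9 divided-count members rose. With median-of-ratios scaling 2 members rose and 0 fell, and with library totals 2 rose and 2 fell. At 72 h no member was called by edgeR (6 at an unadjusted p under 0.05, and 1 by DESeq2), against 0.116% of all genes higher and 0.348% lower.

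**Figure D5:**
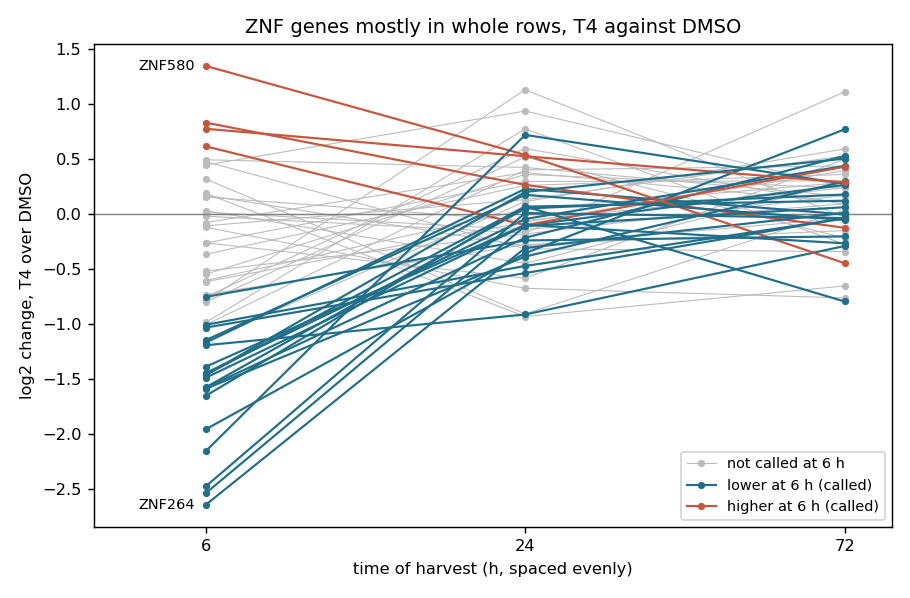
Log2 change of T4 over DMSO (vertical axis) at 6, 24 and 72 h (horizontal axis, spaced evenly) for the 51 whole-count ZNF genes, with 1 line per gene. The 20 genes that fell at 6 h (blue, median -1.48) have medians of -0.10 at 24 h and 0.03 at 72 h, and the 4 that rose are in red.

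LM2 cells were compared with Par cells within each fraction. In the cytoplasm 3 of 94 members were higher in LM2 cells and 7 lower, against 5.37% and 10.2% of all genes, and in the nucleus 1 was higher and 1 lower, against 1.48% and 1.41%. ZNF592 was higher in both fractions, with 63.5, 56.9 and 73.5 CPM in LM2 cytoplasm, against 44.0, 31.6 and 30.6 in Par cytoplasm (log2 change 0.87 ± 0.20), and 0.99 ± 0.21 in the nucleus. ZNF219 was lower in both, with 113, 106 and 107 CPM in LM2 cytoplasm, against 147, 141 and 163 in Par cytoplasm (-0.47 ± 0.13), and -0.76 ± 0.14 in the nucleus. ZNF706, whose mouse counterpart limits self-renewal of embryonic stem cells, was lower in LM2 cytoplasm, with 24.1, 26.7 and 18.4 CPM, against 52.3, 79.2 and 36.4 in Par cytoplasm (-1.28 ± 0.30). ZNF408 and ZNF768 were higher, and ZNF121, ZNF518B, ZNF664, ZNF687 and ZNF777 lower, in LM2 cytoplasm. With library totals 0 members were called in either fraction, and leaving out any library of the cytoplasmic comparison other than Par library 3 left 1. With median-of-ratios scaling 6 members were higher and 2 lower in LM2 cytoplasm, and the median of all genes moved to 0.11 from -0.02. Whether that median accounts for the change in calls was not tested. More members were called with other settings, 23 higher and 12 lower of 106 with the cytoplasmic groups alone, 15 and 6 of 94 with DESeq2, 13 and 9 of 72 with whole rows, and 8 and 10 of 94 without the second nuclear libraries, so the count ran between 0 and 35 and the split turned with the setting. In the nucleus, with the replicate number as a block, 0 members were higher and 1 lower, and leaving out nuclear library 3 of either line left 0 calls and library 1 of either line or Par library 2 left 1.

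Site use was tested for members whose 2 most used rows averaged 10 or more reads each, as a change in the ratio of the 2 rows. Of 19 members tested in the knockdown table, 8 changed between gCTRL nucleus and cytoplasm, against 29.3% of all genes tested. Only 3 of the 8 (ZNF24, ZNF592 and ZNF770) rested on rows that were both whole. In ZNF24 the annotated end held 81.0 ± 10.2% of the reads of the pair in gCTRL nuclei and 27.3 ± 11.9% in gCTRL cytoplasm (SD, n = 3, edgeR adjusted p = 0.00081). In gCTRL nuclei 9, 20 and 26 reads lay there and 4, 3 and 4 in the other row, which is named by a position, and in gCTRL cytoplasm 10, 3 and 14 lay at the annotated end and 20, 19 and 26 in the other row. In ZNF592 the downstream row held 84.7 ± 4.0% of the pair in gCTRL nuclei and 65.3 ± 6.8% in gCTRL cytoplasm (edgeR adjusted p = 0.029). In ZNF770 the annotated end held 88.0 ± 2.0% in gCTRL nuclei and 94.6 ± 0.2% in gCTRL cytoplasm (edgeR adjusted p = 0.013). Of 10 alternatives each, the call was lost in 5 for ZNF592, 2 for ZNF770 and 0 for ZNF24. In Par cells none of these genes was called, with log2 changes of -0.61 for ZNF592, -0.55 for ZNF770 and 1.03 for ZNF24. None of the other pairs is of that kind: ZNF207, ZNF346, ZNF395, ZNF526 and ZNF101 each include a divided row.

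ZNF207 encodes BuGZ, a protein of the spindle and kinetochore, and its annotated ends lie 10505 bases apart. The upstream end, printed above, has whole counts. The downstream end, with divided counts, held 96.2 ± 2.9% of the pair in gCTRL nuclei and 78.1 ± 4.8% in gCTRL cytoplasm, with ratios that moved by 2.84 ± 0.50 on the log2 scale. ZNF346, a protein that binds double-stranded RNA, had 60.3 ± 4.7% of the pair in its downstream row, a divided one, in gCTRL nuclei and 16.8 ± 4.2% in gCTRL cytoplasm. No coordinates are given for rows named by position, and a pair that holds one rests on the order of the rows. Where such a row is paired with an annotated end, their order on the RNA is not known.

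Few other comparisons of site use passed the test. Between Par nucleus and cytoplasm 1 of 15 members changed (ZNF526, whose rows are both divided), against 11.2% of all genes, while ZNF346 had 3.37 ± 1.29 on the log2 scale (adjusted p = 0.094). After knockdown 0 of 19 changed in the cytoplasm by edgeR (6 at an unadjusted p under 0.05, no other tool run), against 11.6% of all genes, and 1 of 19 in the nucleus, against 3.68%. That one, ZNF276, has ends only 18 bases apart, 1 of them divided. Between LM2 and Par cytoplasm 0 of 15 changed (3 at an unadjusted p under 0.05), against 0.187% of all genes, with ZNF395 at -2.14 ± 0.55 (adjusted p = 0.070).

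At 6 h of T4, 2 of 10 members changed in site use, against 5.45% of all genes. The downstream row of ZNF346 held 96.8 ± 2.1% of the pair after T4 and 62.8 ± 9.2% after DMSO (SD, n = 3, edgeR adjusted p = 8.9e-05). Its upstream row, which is whole, had 8, 1 and 6 reads in the T4 libraries and 83, 68 and 76 in the DMSO libraries, while the divided downstream row had 154, 125 and 154 reads after T4 and 91, 133 and 175 after DMSO. At 24 h the downstream share was 59.8 ± 9.7% after T4 and 44.4 ± 3.4% after DMSO, and at 72 h 58.0 ± 16.4% after T4 and 69.7 ± 8.2% after DMSO. ZNF557 had 0 reads at its annotated end in all 3 T4 libraries at 6 h, and 19, 4 and 13 reads in the DMSO libraries, while its other row, a divided one, had 95, 65 and 89 reads after T4 and 74, 73 and 69 after DMSO. At 24 h the annotated end of ZNF557 had 4, 11 and 18 reads after T4 and 23, 16 and 6 after DMSO.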

How the data were processed

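The values analysed are expected counts that the authors deposited, 1 table for each of the 3 experiments, made with Salmon 0.14.1 on hg38 per the submitters' processing notes. All 42 columns were used. A row is a transcript end or is named by a position. Position rows were added to the gene of the transcript row above them by row order, with 9.66% of them inside the GRCh38 span of that transcript. Counts were summed per gene and rounded, and reads without a gene (0.919 to 4.131% of a library) were left out. edgeR 4.0.16 (R 4.3.3) fitted all groups of a table together, with TMM factors, a gene mean of 20 or more, and Benjamini-Hochberg adjustment over all genes; CPM are TMM-scaled, except in the label checks, which use library totals. Site use was tested on the 2 most used rows of a gene, each with a mean of 10 or more, in a model with 1 term per library. Scripts were tested on simulated data. Poly(A) signals were searched in the GENCODE 29 transcripts, and no genome sequence was used. The sequences of ends with divided counts are not reported here.

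Same-numbered libraries of 2 groups were correlated by their deviations from the group means. Every such pair was above 0.1 only for LM2 and Par nuclei (0.23 to 0.84) and T4 and DMSO at 72 h (0.21 to 0.80). The main fits used no pairing, also for these comparisons, and the replicate number was a block only in an alternative fit. Named are up to 8 called members per direction and comparison with groups that do not overlap, up to 10 called alike in all 4 fraction comparisons and for site use, listed genes of 4 roles and of the KRAB pathway, and the most abundant members. Other genes named were chosen after their values were seen. Members and lists were chosen with earlier results of these data known. Alternatives were other scalings, filters, tools, a replicate block, whole rows only, and leaving out libraries.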

Additional observations from a re-analysis of the deposited data

Results flagged for a closer look

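By the test of the difference itself, 16 members had a T4 effect that differed between 24 h and 6 h, and 15 had one that differed between 72 h and 6 h. The values are differences of the log2 change of T4 over DMSO, later time minus 6 h, so a positive value means a T4 effect less negative or more positive at the later time.

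At 24 h minus 6 h, 15 of the 16 differences were positive. They were 2.88 for ZNF609, 2.49 for ZNF775, 2.43 for ZNF638, 2.34 for ZNF264, 1.92 for ZNF587, 1.76 for ZNF605, 1.63 for ZNF473, 1.53 for ZNF444, 1.40 for ZNF48, 1.40 for ZNF212, 1.385 for ZNF335, 1.37 for ZNF445, 1.32 for ZNF687, 1.32 for ZNF419 and 1.203 for ZNF512B. ZNF185 had a difference of -1.23.

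At 72 h minus 6 h, 12 of the 15 differences were positive. They were 2.73 for ZNF367, 2.66 for ZNF264, 2.60 for ZNF638, 2.44 for ZNF775, 2.43 for ZNF609, 2.11 for ZNF445, 1.97 for ZNF777, 1.89 for ZNF512B, 1.88 for ZNF48, 1.75 for ZNF473, 1.75 for ZNF335 and 1.58 for ZNF444. The difference was -0.96 for ZNF219, -1.79 for ZNF580 and -2.02 for ZNF285. All of these rest on the same 6 libraries of 6 h.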

How the results depend on the processing

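Over the 152 results on named members, 2185 alternatives were run: 1848 kept direction and call, 336 lost the call and 1 reversed, the site use of ZNF346 between gCTRL nucleus and cytoplasm with whole rows (-0.054, against 2.93), where the divided downstream row is left out and another pair of rows is tested. Counts of called members moved as follows, from the counts in the report. Without a filter they were 87 for LM2 nucleus against cytoplasm, 119 for gCTRL, 38 for gHNRNPC against gCTRL cytoplasm, 82 at 6 h and 26 at 24 h of T4, 35 and 59 for 24 h and 72 h minus 6 h, and 4 and 0 for LM2 against Par in cytoplasm and nucleus. With edgeR's own filter they were 43 for the cytoplasmic knockdown, 56 at 6 h, and 36 and 31 for 24 h and 72 h minus 6 h. With library totals they were 0 and 0 for LM2 against Par in cytoplasm and nucleus and 27 for 72 h minus 6 h. With only the groups compared they were 35 and 0 for LM2 against Par, 7 at 6 h, 37 at 24 h and 9 for 72 h minus 6 h. With DESeq2 they were 21 for LM2 against Par cytoplasm, 5 at 24 h, 1 at 72 h and 24 for 72 h minus 6 h. With whole rows they were 22 for LM2 against Par cytoplasm and 1 at 72 h, and without the second nuclear libraries 18 for LM2 against Par cytoplasm. The replicate block gave 1 for LM2 against Par nucleus and changed no other count of called genes by over 1.5 times. For site use, the block gave 3 in Par cells and 0 for the nuclear knockdown, whole rows gave 0 in Par cells, 3 in gCTRL cells, 0 for the nuclear knockdown and 0 at 6 h, site means of 50 or more gave 2 in gCTRL cells, 0 for the nuclear knockdown and 1 at 6 h and no test for LM2 and Par cells, no site filter gave 5 in Par cells and 0 for the nuclear knockdown, and the groups compared alone gave 0 in Par cells, 2 for LM2 against Par cytoplasm and 1 at 6 h. The cause of these moves was not tested.

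Leaving out 1 library gave 27 to 44 called members in Par and 38 to 54 in LM2 fractions, 69 to 71 in gCTRL and 55 to 61 in gHNRNPC fractions, 15 to 22 and 7 to 14 for the knockdown in cytoplasm and nucleus, 0 to 0 for its difference between fractions, 1 to 10 and 0 to 2 for LM2 against Par in cytoplasm and nucleus, 16 to 31 at 6 h, 0 to 2 at 24 h, 0 to 0 at 72 h, and 10 to 28 and 10 to 19 for 24 h and 72 h minus 6 h. For site use it gave 0 to 1 in Par cells, 6 to 8 in gCTRL cells, 0 to 2 and 0 to 0 for the knockdown in cytoplasm and nucleus, 0 to 1 for LM2 against Par cytoplasm and 2 to 2 at 6 h. At 798052 to 2304698 reads per library, most members had too few reads to be tested.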
